A study of Homo sapiens with 36 samples.

Results

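The 40 genes described here encode the machinery of G2 phase and mitosis, and were taken by name from a table of 21950 genes measured in K562 cells, a human chronic myeloid leukemia line with erythroid features. They fall into 10 roles. These are the cyclin-CDK engine that starts mitosis (8 genes), Polo-like kinase 1 and Aurora A (2), the spindle checkpoint (5), the chromosomal passenger complex (3), the factors that trigger anaphase (3), kinetochore and centromere proteins (5), spindle motors and microtubule binders (6), cytokinesis proteins (5), chromosome structure and the proliferation mark Ki-67 (2), and the transcription factor FOXM1 (1). A gene entered the tests with a mean of at least 1 FPKM over all libraries. FPKM is a gene's number of sequenced fragments after scaling for how long its transcript is and how many fragments the library has. Of the 40 genes, 39 entered, among 10625 genes in all; UBE2C, the ubiquitin-conjugating enzyme that works with the anaphase-promoting complex, averaged 0.849 FPKM and was not tested.

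Cells grew in incubators set to 1%, 5% or 21% oxygen, and RNA was taken after 6 h, 24 h, 3 d and 6 d, with 3 libraries for each of the 12 combinations and 36 in all. The labels name no genetic change and no drug in any group. Cultures were kept in DMEM in 6-well plates and were passaged at 3 d, so the 6 d cultures had been passaged once. Oxygen level and incubator cannot be told apart, and because no source used here states that libraries came from separate experiments, p-values measure only the spread between these libraries.

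Cyclin B bound to CDK1 drives entry into mitosis, with cyclin A, the CDC25 phosphatases and Polo-like kinase 1 acting upstream. The spindle checkpoint holds back the anaphase-promoting complex and its activator CDC20 until every kinetochore is attached, after which securin and cyclin B are destroyed and the sister chromatids separate. Transcripts of most of these genes build up in G2 phase and are low in G1, under control of the DREAM and MuvB complexes, B-MYB and FOXM1, so in a dividing culture their level follows both the number of cells in G2 and mitosis and the amount made per cell. These cannot be told apart in RNA from whole cultures.

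The promoters of such genes are known for the CHR element, TTTGAA, which binds MuvB complexes, and for CCAAT boxes, which bind NF-Y. Promoter windows of 300 bases, 250 before and 50 after the start, were taken from RefSeq on GRCh38.p14 and searched on both strands for TTTGAA and for CCAAT, whose matches may share bases. A window was found for 33 of the 40 genes, in 43 promoters. TTTGAA was present in 27 of them (62.8%), against 15.2% of all 35116 promoters, and CCAAT in 32 (74.4%), against 34.6%. Both were present in 22 (51.2%), against 5.90% of all promoters. The 120 bases before the start are shown for 5 genes whose RNA levels carry the results given further on, in lower case, with capitals where TTTGAA or CCAAT was found on either strand. BUB1 lies at chr2:110678064-110678183 on the minus strand, AURKB (the first by position of its 2 promoters) at chr17:8210226-8210345 on the minus strand, CDC20 at chr1:43358861-43358980, CCNB1 at chr5:69167030-69167149 and PLK1 at chr16:23678769-23678888, each of the last named 3 on the plus strand.
BUB1: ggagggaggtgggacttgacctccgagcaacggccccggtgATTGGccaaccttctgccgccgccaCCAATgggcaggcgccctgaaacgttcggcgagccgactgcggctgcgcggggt
AURKB: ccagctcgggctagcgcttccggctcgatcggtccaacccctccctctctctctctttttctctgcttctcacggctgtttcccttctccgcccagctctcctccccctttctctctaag
CDC20: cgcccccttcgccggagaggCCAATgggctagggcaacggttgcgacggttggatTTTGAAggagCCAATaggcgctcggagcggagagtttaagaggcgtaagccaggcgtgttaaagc
CCNB1: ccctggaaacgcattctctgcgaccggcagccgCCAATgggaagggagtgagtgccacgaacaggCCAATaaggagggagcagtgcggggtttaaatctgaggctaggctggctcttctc
PLK1: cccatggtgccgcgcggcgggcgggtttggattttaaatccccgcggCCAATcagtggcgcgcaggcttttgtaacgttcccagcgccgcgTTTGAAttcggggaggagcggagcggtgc
In these windows TTTGAA began 65 bases before the start of CDC20 and 29 bases before that of PLK1. CCAAT boxes began 79 and 54 bases before the start of BUB1, 100 and 55 before that of CDC20, 87 and 55 before that of CCNB1 and 73 before that of PLK1. The AURKB window shown held neither motif. The other AURKB promoter is not shown and its motifs are not given, so this describes 1 of its 2 promoters only. A match describes letters in a window and not binding.

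One library stood apart, replicate 3 of 1% oxygen at 3 d, called the shallow library here. It listed 7220 genes above 0, where the other 35 listed 14512 to 19543, and 429 of the 3695 genes whose median was over 20 FPKM were at 0 in it, against 7 or fewer in any other library. Of the 40 genes, CDC25B, INCENP, CENPA and UBE2C were listed at 0 in it. Tests were run with all libraries and again without it. The files hold no counts, so depth in reads is unknown; relative depth of the 35 libraries, from the values of weakly expressed genes, spanned 4.41-fold. The lowest, at 0.349 of their median, was replicate 3 of 21% oxygen at 24 h, which also had the highest summed FPKM, 1171415. The lowest sum was that of the shallow library, 535152, and the lowest of the other 35 was 632398. Markers of K562 were present in every library, with GATA1 at 124 to 308 FPKM and HBG1 at 596 to 2727 FPKM. CD3E, ALB, COL1A1 and KRT14, which mark other cell types, reached at most 0.420, 0.912, 2.82 and 0.637 FPKM.

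The genes were among the more abundant transcripts of these cells. At the median they varied less between the 12 groups than all genes tested. Their median level, over means of all libraries, was 55.0 FPKM, against 10.4 FPKM for all genes tested, and 14 of the 40 averaged over 100 FPKM. The CDK-binding subunit CKS1B was the highest at 561 FPKM, followed by the kinase CDK1 at 317 FPKM and CKS2 at 316 FPKM, and INCENP, the scaffold of the chromosomal passenger complex, was the lowest of the genes tested at 5.31 FPKM. CKS1B, CKS2 and some others (BUB3, MAD2L1, PTTG1, CDC20, CCNB2, BUB1, KIF4A) have annotated near-identical copies elsewhere in the genome, and reads that fit a copy may have been counted at either place. Without the shallow library, the distance from the lowest to the highest of the 12 group means had a median of 0.61 on the log2(FPKM + 1) scale, against 0.83 over all genes tested. It was over 1 for BUB1 (1.46) and INCENP (1.07), or 5.13% of the 39, against 35.5% of all genes tested. Genes of like abundance were not compared, so the part of abundance in the narrower range was not tested. TPX2, which activates Aurora A on the spindle, varied least, by 0.19. The highest group mean was that of 1% oxygen at 6 h for 14 genes, of 1% oxygen at 6 d for 10 and of 21% oxygen at 24 h for 8. The lowest was that of 1% oxygen at 3 d for 10 and of 5% oxygen at 3 d for another 10. The same tally over all genes tested was not made, so these places cannot be called particular to the 39 genes. The 21% group at 24 h holds the library with the highest summed FPKM.

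**Figure D1:**
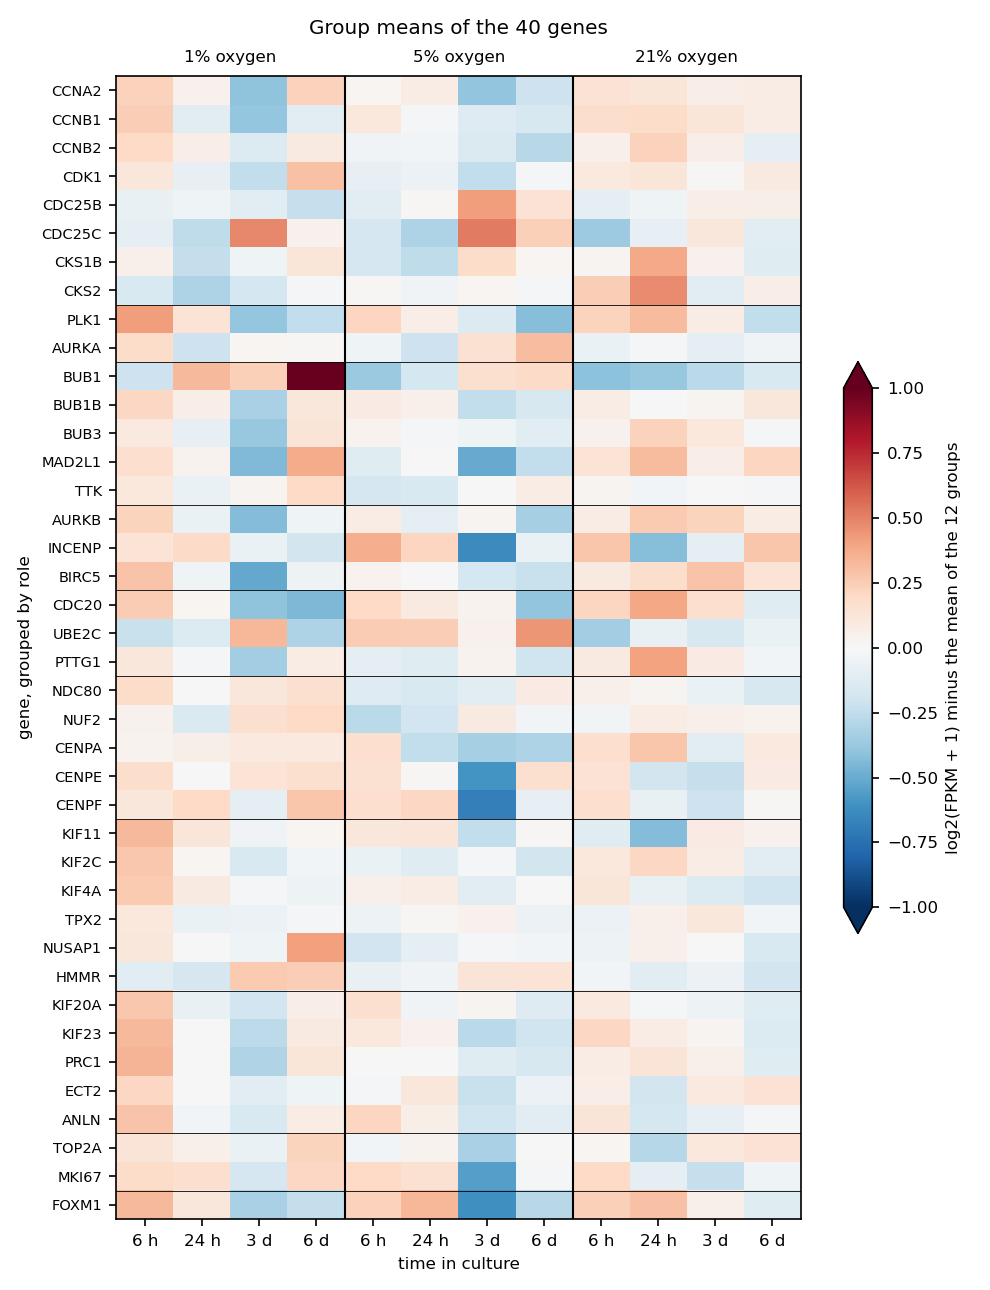
Group means of log2(FPKM + 1) for the 40 genes, each minus that gene's mean over the 12 groups, with oxygen level and time across and genes grouped by role down, and with the shallow library left out of the 3 d mean in 1% oxygen. BUB1 in 1% oxygen at 6 d is the darkest red cell, and the columns of 3 d in 1% and 5% oxygen are blue for many genes.

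In 1% oxygen at 3 d, 11 regulators of mitosis had fewer transcripts than in 21% oxygen whether or not the shallow library was used, and BUB1 had more. Those that fell were CCNA2 and CCNB1 (cyclins A2 and B1), PLK1, BUB1B, BUB3 and MAD2L1 of the spindle checkpoint, AURKB and BIRC5 (Aurora B and survivin) of the passenger complex, CDC20 and PTTG1 (securin) of anaphase, and KIF23, a kinesin of the cleavage furrow. With all libraries 1 of 39 genes was higher and 15 lower by limma at an adjusted p under 0.05, where 16.9% of all genes tested passed as higher and 36.3% as lower. When the shallow library was left out, 4 were higher and 13 lower, where 25.2% and 28.5% of all genes passed. The count of falls was thus close to the share of all genes. The median difference of the 39 genes was -0.34 on the log2(FPKM + 1) scale, against -0.32 over all genes, and -0.17 against -0.01 without the shallow library. The 11 genes named as falling and BUB1 were the 12 that passed in both fits in the same direction. All 12 also passed with each of the 6 libraries of the pair of groups left out in turn. Leaving out the shallow library is the second fit again, so that outcome was set by the choice of the 12. The other left-out fits keep the shallow library. The same holds further on wherever the 1% group at 3 d is compared.

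AURKB had 43.1, 63.3 and 46.2 FPKM in 1% oxygen at 3 d, against 83.7, 81.5 and 87.4 FPKM in 21% oxygen. All 3 libraries of 1% oxygen were below all 3 of 21% oxygen. AURKB, the kinase that corrects faulty attachments of chromosomes to the spindle, fell by 0.74 ± 0.11 (adjusted p = 5.34e-06) with all libraries and by 0.68 ± 0.12 (adjusted p = 2.27e-05) without the shallow one (limma, log2 scale, ± SE). BIRC5, which brings the same complex to the centromere, had 75.9, 84.9 and 126 FPKM in 1% oxygen, against 135, 133 and 154 FPKM in 21% oxygen. It was lower in all 3 libraries of 1% oxygen, and the shallow library, the last of the values for 1% oxygen here and in what follows, was the nearest to the controls. Its difference was -0.58 ± 0.12 with all libraries and -0.80 ± 0.09 without the shallow one (limma adjusted p = 0.000272 and 5.27e-08). INCENP, the scaffold of the complex, did not pass either way, with differences of -0.84 ± 0.38 and 0.02 ± 0.20.

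CDC20, the activator of the anaphase-promoting complex, had 139, 161 and 64.7 FPKM in 1% oxygen at 3 d, against 209.6, 226 and 234 FPKM in 21% oxygen. The groups did not overlap, and the shallow library was the lowest. CDC20 fell by 0.97 ± 0.18 with all libraries and by 0.57 ± 0.11 without the shallow one (limma adjusted p = 8.54e-05 and 4.45e-05). PTTG1, which keeps the cohesin-cutting protease inactive until anaphase, had 171, 156 and 119.8 FPKM in 1% oxygen, against 217, 208 and 239 FPKM in 21% oxygen, again with no overlap. Its difference was -0.58 ± 0.13 with all libraries and -0.43 ± 0.12 without the shallow one. The low values of UBE2C, the untested partner of CDC20, are uncertain, since the deposited values of its transcripts summed to up to 0.813 FPKM more or less than that of the gene, where those of the other 39 genes summed to it within 0.01 FPKM. It lay between 0 and 1.84 FPKM in 1% oxygen and between 0.628 and 0.742 FPKM in 21% oxygen.

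In the spindle checkpoint, BUB3, the adaptor that carries BUB1 and BUBR1 to kinetochores, had 153, 164 and 70.9 FPKM in 1% oxygen at 3 d, against 203, 221 and 241 FPKM in 21% oxygen. MAD2L1, which binds and inhibits CDC20, had 176, 179.9 and 64.1 FPKM in 1% oxygen, against 247, 262 and 252 FPKM in 21% oxygen. Both genes were lower in every library of 1% oxygen, the shallow library by far the most. Without it BUB3 fell by 0.48 ± 0.08 and MAD2L1 by 0.51 ± 0.11, against -0.86 ± 0.17 and -0.99 ± 0.21 with all libraries, and all 4 differences passed (limma adjusted p between 1.84e-05 and 0.0004). BUB1B, which encodes BUBR1, had a difference of -0.95 ± 0.25 with all libraries and -0.35 ± 0.09 without the shallow one. TTK, the kinase at the head of the checkpoint, did not pass, with -0.02 ± 0.13 and 0.03 ± 0.13. BUB1, the kinase that marks centromeres for the passenger complex, went the other way, with 86.8, 94.2 and 92.5 FPKM in 1% oxygen, against 61.8, 63.2 and 64.2 FPKM in 21% oxygen. All its libraries of 1% oxygen were higher, the shallow one included, and it rose by 0.52 ± 0.08 with all libraries and 0.51 ± 0.09 without that one (limma adjusted p = 1.03e-05 and 2.11e-05).

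Among the genes of entry into mitosis, CCNB1 had 140.4, 158 and 130.0 FPKM in 1% oxygen at 3 d, against 196, 202 and 241 FPKM in 21% oxygen. PLK1 had 115, 119 and 81.2 FPKM in 1% oxygen, against 157, 156 and 174 FPKM in 21% oxygen. Neither gene's groups overlapped. CCNB1 fell by 0.57 ± 0.10 with all libraries and 0.51 ± 0.11 without the shallow one, PLK1 by 0.64 ± 0.11 and 0.46 ± 0.10, and CCNA2 by 0.62 ± 0.10 and 0.47 ± 0.09 (limma, all passed). CDK1, the kinase that these cyclins activate, had 254, 280.2 and 168 FPKM in 1% oxygen, against 305, 338 and 319 FPKM in 21% oxygen, and passed only with the shallow library, at -0.48 ± 0.13 against -0.26 ± 0.11 without it. The same held for CCNB2 (cyclin B2) at -0.39 ± 0.11 against -0.20 ± 0.09, and for CDC25B, a phosphatase that activates CDK1, at -1.11 ± 0.40 against -0.18 ± 0.18. CDC25C, the other phosphatase of the list, passed only without the shallow library, as higher, at 0.37 ± 0.12 against -0.12 ± 0.22 with it. CKS1B, CKS2 and AURKA did not pass in either fit, with differences without the shallow library of -0.08 ± 0.13, -0.07 ± 0.15 and 0.11 ± 0.10.

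Few of the genes of kinetochores, spindles and cytokinesis passed at 3 d. All 5 kinetochore and centromere genes (NDC80, NUF2, CENPA, CENPE, CENPF) had positive differences without the shallow library, with a median of 0.17, whereas 4 of the 5 were negative with it, with a median of -0.36. Of these CENPE, a motor that carries chromosomes to the spindle equator, passed without the shallow library at 0.37 ± 0.15 (limma adjusted p = 0.0364), and none passed with it. Of the 6 spindle genes HMMR, a microtubule-binding protein, passed as higher without the shallow library (0.32 ± 0.11) and TPX2 as lower with it (-0.30 ± 0.10). KIF11, the motor that pushes the spindle poles apart, had -0.12 ± 0.25 without it and did not pass in either fit. In cytokinesis KIF23 fell by 0.92 ± 0.26 with all libraries and by 0.29 ± 0.10 without the shallow one, PRC1, the bundler of the midzone, passed only without it (-0.35 ± 0.09), and KIF20A, ECT2 and ANLN did not pass. TOP2A, which disentangles sister chromatids, and MKI67 did not pass, with -0.17 ± 0.13 and 0.06 ± 0.13 without the shallow library, while MKI67 read 10.9, 10.8 and 23.1 FPKM in 1% oxygen, the shallow library standing far above the others. FOXM1, a transcription factor of many of these genes, passed only without the shallow library, at -0.39 ± 0.15 against -0.13 ± 0.18 with it.

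**Figure D2:**
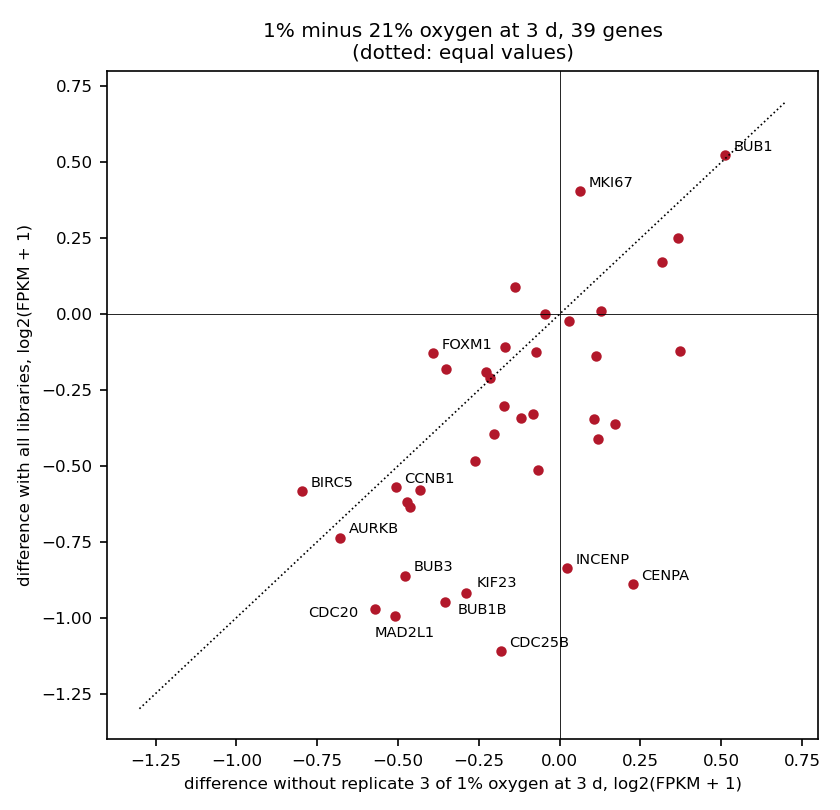
Difference between 1% and 21% oxygen at 3 d in log2(FPKM + 1) for the 39 genes tested, without the shallow library on the horizontal axis and with all libraries on the vertical axis, with a dotted line of equal values. BUB1, AURKB and CCNB1 lie near the line, whereas CDC25B, CENPA and INCENP lie far below it.

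The direction of the 12 shared calls did not turn under other scalings, but their number past the threshold did change. AURKB, BUB3, CDC20 and BUB1 passed under each of 4 rescaled fits (quantile normalization, and FPKM divided by each library's total, both with and without the shallow library). BIRC5 and CCNB1 missed only under quantile normalization with all libraries, CCNA2, MAD2L1 and PLK1 only under quantile normalization without the shallow library, PTTG1 under quantile normalization in both cases, and BUB1B and KIF23 under both rescalings without the shallow library. Quantile normalization without the shallow library called 9 genes higher and 6 lower, against 4 and 13 as deposited, and 53.6% of all genes passed in either direction under that normalization. With all libraries, quantile normalization gave 5 higher and 9 lower, where 52% of all genes passed. Division of FPKM by library totals gave 2 higher and 14 lower with all libraries, where 47.9% of all genes passed. Without the shallow library it gave 3 and 9, where 46.4% passed. Of these fits, rises outnumbered falls over the 39 genes only under quantile normalization without the shallow library. Of the tested genes with a promoter window, the 24 with TTTGAA had a median difference of -0.08 and the 9 without it one of -0.23, without the shallow library.

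At 6 d, after the passage, BUB1 had the largest difference found for any of the 39 genes in the 8 comparisons with 21% oxygen. It had 154, 157 and 167 FPKM in 1% oxygen, against 67.5, 66.4 and 71.7 FPKM in 21% oxygen. The groups lay far apart, and the rise was 1.21 ± 0.08 (limma adjusted p = 1.41e-11). It ranged from 1.17 to 1.24 with each of the 6 libraries left out in turn. With all libraries 3 of 39 genes were higher and 0 lower, where 5.84% of all genes passed as higher and 5.04% as lower. Leaving out the shallow library gave 5 higher and 2 lower, where 13.8% and 16% of all genes passed. The median difference of the 39 genes was 0.10, against -0.03 over all genes.

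NUSAP1, a microtubule-bundling protein of the spindle, had 124, 125 and 141 FPKM in 1% oxygen at 6 d, against 87.1, 87.5 and 89.3 FPKM in 21% oxygen. HMMR had 60.0, 58.0 and 61.3 FPKM in 1% oxygen, against 44.7, 41.8 and 46.1 FPKM in 21% oxygen. Both were higher in every library of 1% oxygen, NUSAP1 by 0.56 ± 0.10 (limma adjusted p = 0.000222) and HMMR by 0.43 ± 0.12 (adjusted p = 0.017), and both passed under all 4 rescaled fits. The call of HMMR was lost without replicate 3 of 1% oxygen or replicate 2 of 21% oxygen at 6 d. CDC20 had 136, 141 and 159 FPKM in 1% oxygen, against 183, 186 and 178 FPKM in 21% oxygen. It was lower in all libraries of 1% oxygen and passed without the shallow library, at -0.33 ± 0.09 (adjusted p = 0.00909). The other calls without that library were NDC80, which links kinetochores to microtubules, at 0.31 ± 0.08, PRC1 at 0.24 ± 0.08 and INCENP at -0.48 ± 0.18. Of the 11 genes that fell at 3 d, CDC20 was the only one that passed as lower at 6 d in either fit. CCNB1 had a difference of -0.18 ± 0.10, PLK1 of -0.00 ± 0.09, AURKB of -0.12 ± 0.11, BIRC5 of -0.19 ± 0.08, BUB3 of 0.14 ± 0.07 and MAD2L1 of 0.15 ± 0.10, without the shallow library.

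**Figure D3:**
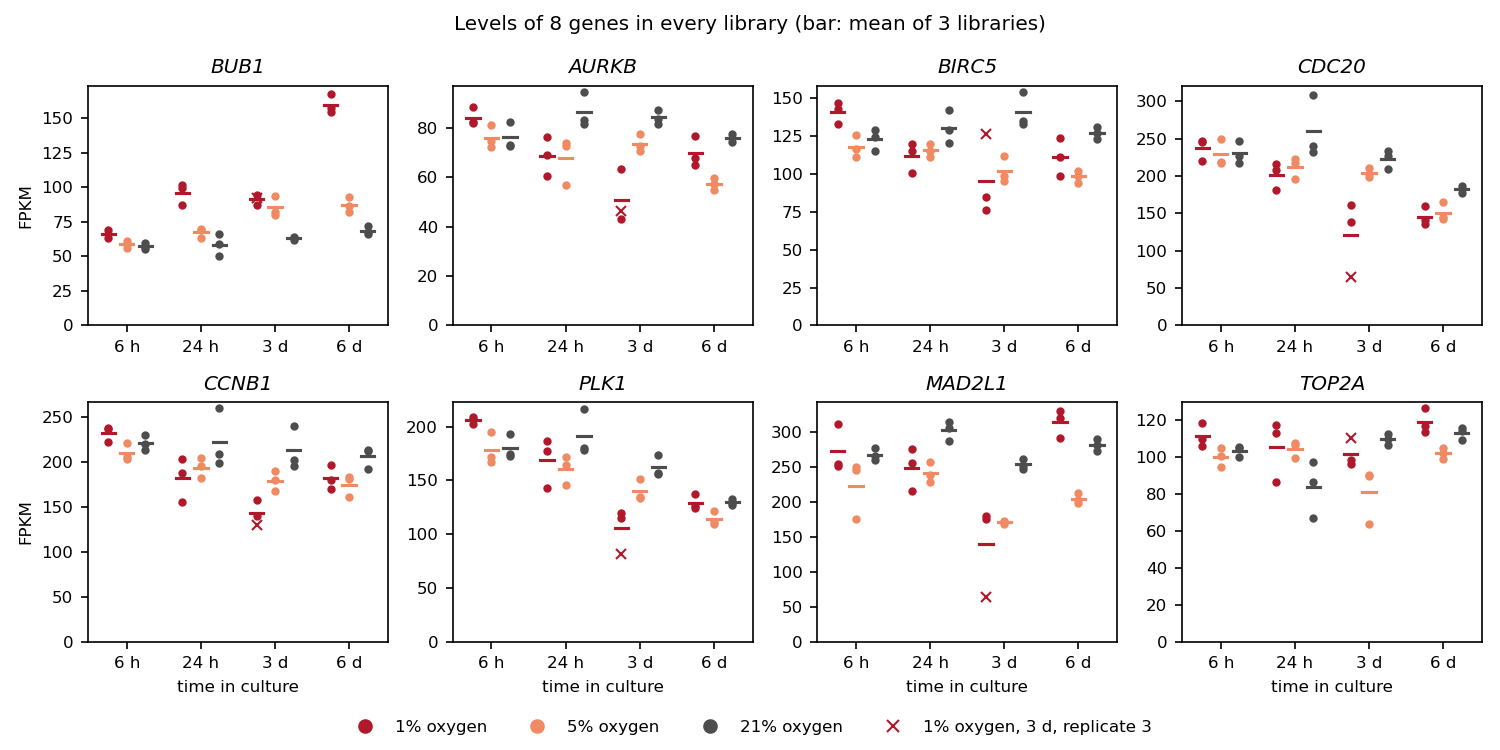
FPKM of 8 genes in every library by time, with 1% oxygen in red, 5% in orange and 21% in grey, a bar for the mean of 3 libraries and a cross for the shallow library. BUB1 in 1% oxygen lies above 21% oxygen at every time and furthest at 6 d, whereas the 3 d bars of AURKB, CDC20, CCNB1, PLK1 and MAD2L1 in 1% oxygen are the lowest of their panels; without the shallow library this holds for AURKB and CCNB1 and not for the other 3.

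The change of the oxygen difference between 3 d and 6 d was itself tested. In the sense of the difference at 6 d minus that at 3 d, 14 of 39 genes were higher and 0 lower for 1% against 21% oxygen with all libraries, where 18.1% of all genes passed as higher and 10.3% as lower, and again 14 and 0 without the shallow library, where 20.1% and 18.1% passed. The count depended on the scale. With all libraries, quantile normalization gave 3 higher and 0 lower, where 28.9% of all genes passed in either direction. Division of FPKM by library totals gave 7 and 0, where 20.8% passed. Of the genes called as deposited, 13 passed in both fits. BUB3 (0.62 ± 0.11 without the shallow library) and CCNA2 (0.62 ± 0.12) passed with each of the 12 libraries left out and under all 4 rescaled fits. MAD2L1 had 0.66 ± 0.15, BUB1 0.69 ± 0.12, AURKB 0.56 ± 0.16, NUSAP1 0.60 ± 0.14, PLK1 0.46 ± 0.13, PTTG1 0.53 ± 0.17 and KIF23 0.52 ± 0.14, each of which missed under 1 or more rescaled fits. BUB1B and PRC1 were among the 13, but missed with most of the 12 left-out libraries, the shallow one not among them for either. CDK1 and CCNB2 were the rest of the 13. CDK1 and BUB1B were lost under all 4 rescaled fits, and CCNB2 was kept under 1 of the 4. For CDC20 the change was 0.24 ± 0.14 and did not pass. The 1% difference varied over the 4 times in 19 genes with all libraries and 23 without the shallow one by limma's F test, where 40.3% and 63.3% of all genes passed, and 18 of the 39 genes passed in both. For 5% against 21% oxygen 0 genes passed in either fit for 6 d minus 3 d, where 0.254% and 2.09% of all genes passed. An unadjusted p under 0.05 (limma) was reached by 1 and 5 of the 39 genes. The share of all genes at that unadjusted limit is not given, so these counts are not set against it. The 5% difference varied over the 4 times in 2 genes with all libraries (CKS1B and TOP2A) and in 16 without the shallow one, where 14.5% and 41.9% of all genes passed.

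At 24 h BUB1 was the only gene whose call between 1% and 21% oxygen held in every fit run. It had 102, 99.1 and 87.3 FPKM in 1% oxygen, against 66.5, 50.3 and 58.6 FPKM in 21% oxygen, with no overlap. Its rise was 0.71 ± 0.08 (limma adjusted p = 2.93e-06), kept with each of the 6 libraries left out and under all 4 rescaled fits. With all libraries 1 of 39 genes was higher and 4 lower in 1% than in 21% oxygen, where 6.56% of all genes passed as higher and 9.66% as lower. Leaving out the shallow library gave 5 higher and 9 lower, where 16.6% and 22% of all genes passed. The falls were led by CKS2 (-0.76 ± 0.22), CKS1B (-0.59 ± 0.15), PTTG1 (-0.40 ± 0.13) and AURKB (-0.33 ± 0.11), and the rises without the shallow library, beside BUB1, by KIF11 (0.68 ± 0.22), INCENP (0.62 ± 0.18), TOP2A (0.34 ± 0.11) and CENPF (0.27 ± 0.10), a large kinetochore protein.

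Those other calls at 24 h moved with single libraries. CKS1B had 483, 533 and 414 FPKM in 1% oxygen, against 596, 643 and 958 FPKM in 21% oxygen, and KIF11 had 24.7, 26.9 and 21.2 FPKM in 1% oxygen, against 25.1, 15.6 and 7.91 FPKM in 21% oxygen. Replicate 3, the last value of each 21% group, was the highest for CKS1B and the lowest for KIF11. Without it the count of genes past the threshold was 1 of 39 (BUB1), against 5 with all libraries. The count was 3 without replicate 1 and 2 without replicate 3 of 1% oxygen at 24 h, and 8 without replicate 1 of 21% oxygen. Shares of all genes in these left-out fits are not given. Without both replicate 3 of 21% oxygen and the shallow library 1 gene was higher and 3 lower, where 24% of all genes passed in either direction. Differences at 24 h ran with transcript length. Across the 39 genes, which share libraries and are not independent, the rank correlation of the difference with the length of the longest coding transcript was 0.71, against 0.41 over 9376 genes with a length (88.2% of those tested), and 0.61 against 0.29 without replicate 3 of 21% oxygen as well. The 20 genes of at least 3201 bases had a median difference of 0.12 and the 19 shorter ones one of -0.22, without the shallow library. At 6 h, 3 d and 6 d the same correlation over the 39 genes was 0.05, 0.10 and 0.10. The part of length or of that library in these calls was not tested. Scale mattered as well: with FPKM divided by each library's total and no shallow library, 26 genes were higher and 1 lower, where 52.3% of all genes passed in either direction, the median difference being 0.34 for the 39 genes and 0.39 for all genes, and with quantile normalization 6 were higher and 1 lower, where 28.1% of all genes passed.

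At 6 h 0 of 39 genes passed between 1% and 21% oxygen by limma with all libraries or without the shallow one, where 0% and 0.0941% of all genes passed. An unadjusted p under 0.05 (limma) was reached by 2 and 8 of the 39 genes. The share of all genes at that unadjusted limit is not given, so these counts are not set against it. BUB1 had 65.8, 63.4 and 69.0 FPKM in 1% oxygen, against 57.0, 59.6 and 55.5 FPKM in 21% oxygen. These values did not overlap, but the difference of 0.20 ± 0.08 did not pass (adjusted p = 0.355 by limma without the shallow library). The median difference of the 39 genes at 6 h was 0.11, against 0.05 over all genes.

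**Figure D4:**
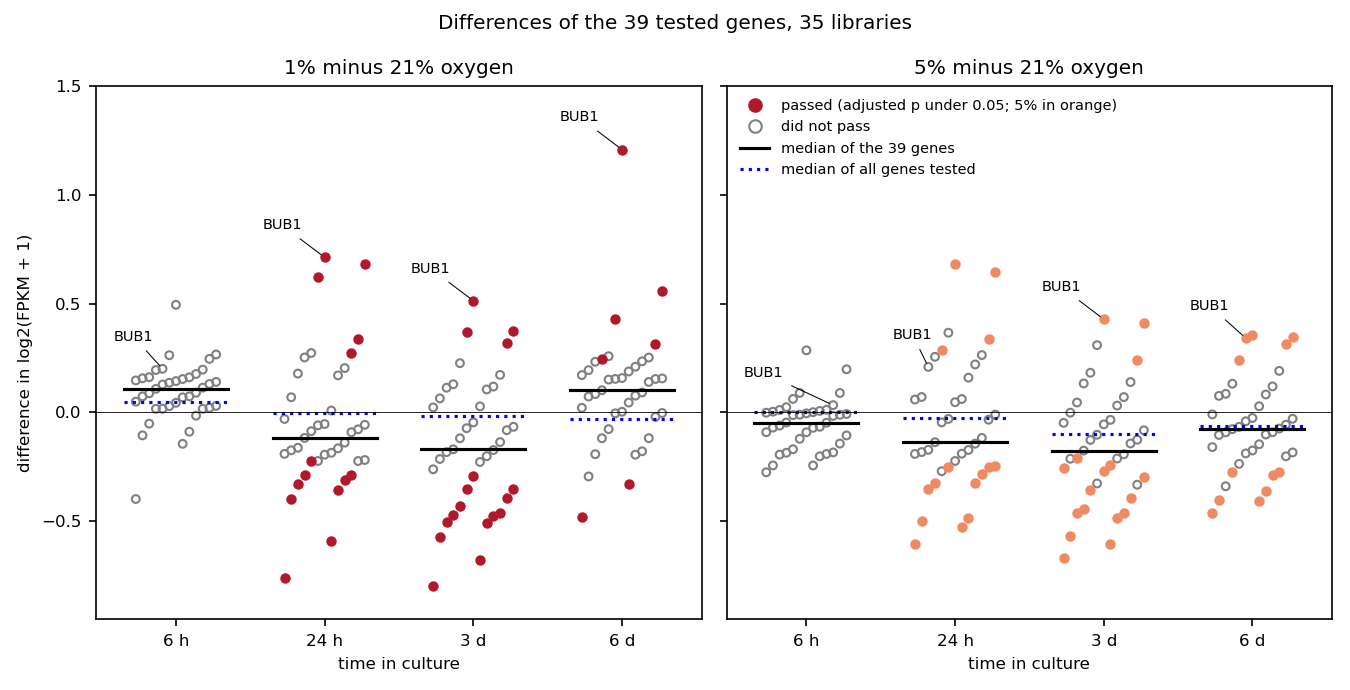
Differences in log2(FPKM + 1) of the 39 genes tested between 1% and 21% oxygen (left) and between 5% and 21% oxygen (right) by time, without the shallow library; filled points passed at an adjusted p under 0.05, the solid bar is the median of the 39 genes and the dotted bar that of all genes tested. BUB1 reaches 1.21 in 1% oxygen at 6 d, and the medians of the 39 genes at 3 d lie below 0 in both panels.

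The comparison of 5% with 21% oxygen shares its 21% libraries with that of 1%, so values of both are set side by side without a test between them. At 3 d in 5% oxygen the genes that passed in both fits were FOXM1, CCNA2, BIRC5 and TOP2A as lower and BUB1 as higher. With all libraries 1 gene was higher and 4 lower, where 8.25% of all genes passed as higher and 13.6% as lower, and without the shallow library 3 were higher and 14 lower, where 15.7% and 29.2% of all genes passed. FOXM1 had 4.71, 4.24 and 3.56 FPKM in 5% oxygen, against 7.45, 7.75 and 6.38 FPKM in 21% oxygen. CCNA2 had 121, 115 and 121 FPKM in 5% oxygen, against 153, 175 and 166 FPKM in 21% oxygen. Both genes were lower in every library of 5% oxygen, by 0.67 ± 0.18 and 0.46 ± 0.10 (limma adjusted p = 0.00573 and 0.000935), and both passed with each of the 6 libraries left out and under all 4 rescaled fits. BIRC5 fell by 0.46 ± 0.12 and was lost under quantile normalization with all libraries. TOP2A fell by 0.44 ± 0.12 and was lost without replicate 3 of 5% oxygen, whose 63.9 FPKM stood below 89.8 and 90.2 FPKM in the other libraries of its group.

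BUB1 rose in 5% oxygen at 3 d by 0.43 ± 0.08 (limma adjusted p = 0.000318), and was lost when FPKM was divided by the library totals. Of the genes that fell in 1% oxygen at 3 d, 5 passed in neither fit in 5% oxygen, namely AURKB (-0.19 ± 0.11 without the shallow library), CDC20 (-0.13 ± 0.09), BUB3 (-0.14 ± 0.07), PLK1 (-0.21 ± 0.09) and PTTG1 (-0.06 ± 0.11). The largest further falls without the shallow library were INCENP (-0.61 ± 0.18), MAD2L1 (-0.57 ± 0.10) and CENPF (-0.49 ± 0.10), and CDC25C (0.41 ± 0.11) and AURKA (0.24 ± 0.09) were higher. With FPKM divided by library totals and no shallow library, 0 genes were higher and 19 lower, where 45.4% of all genes passed in either direction, and with quantile normalization 5 were higher and 8 lower, where 44.8% passed. Quantile normalization with all libraries gave 4 and 4, where 27% of all genes passed.

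At 6 d in 5% oxygen 1 gene was higher and 2 lower with all libraries, where 7.24% of all genes passed as higher and 7.59% as lower, and 5 were higher and 7 lower without the shallow library, where 15.3% and 21.6% passed. Division of FPKM by library totals turned this balance, with 3 genes higher and 0 lower with all libraries and 6 and 1 without the shallow one, where 9.74% and 27.2% of all genes passed in either direction, and quantile normalization gave 3 and 1, then 8 and 6, where 21.1% and 39.3% passed. BUB1 had 81.8, 92.8 and 86.7 FPKM in 5% oxygen, against 67.5, 66.4 and 71.7 FPKM in 21% oxygen, a rise of 0.34 ± 0.08 (limma adjusted p = 0.00482) that passed with each library left out and under all 4 rescaled fits. AURKB had 59.5, 57.0 and 54.8 FPKM in 5% oxygen, against 75.9, 74.0 and 77.3 FPKM in 21% oxygen. It was lower in all libraries of 5% oxygen, by 0.40 ± 0.11 (adjusted p = 0.0135), and was lost without replicate 3 of either group and when FPKM was divided by library totals. BIRC5 fell by 0.36 ± 0.12 (adjusted p = 0.0408) and was lost whichever of the 6 libraries was left out, with the shallow library kept in the fit. Without the shallow library, which is in neither group, its standard error was 0.08 (limma adjusted p = 0.00122). Without replicate 3 of 21% oxygen, and likewise without replicate 3 of 5% oxygen, 1 gene passed in place of 3, with no share of all genes given. The largest further calls without the shallow library were MAD2L1 (-0.46 ± 0.10) and CENPA (-0.41 ± 0.15), the centromeric histone, as lower, and CDC25C (0.35 ± 0.11), AURKA (0.34 ± 0.09) and HMMR (0.32 ± 0.10) as higher.

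At 24 h in 5% oxygen 0 genes were higher and 4 lower with all libraries, where 2.39% of all genes passed as higher and 6.99% as lower, and 4 were higher and 11 lower without the shallow library, where 9.51% and 18.7% passed. The 4 were CKS1B (-0.61 ± 0.15), PTTG1 (-0.50 ± 0.13), AURKB (-0.35 ± 0.11) and KIF2C (-0.32 ± 0.10), a kinesin that takes microtubules apart. All 4 were lost without replicate 3 of 21% oxygen and under every rescaled fit. The count was also 0 without replicate 2 or replicate 3 of 5% oxygen and 9 without replicate 1 of 21% oxygen. Shares of all genes in these left-out fits are not given. BUB1 had a difference of 0.21 ± 0.08 and did not pass. The rank correlation of the difference with transcript length over the 39 genes was 0.76, and 0.68 without replicate 3 of 21% oxygen as well. For 5% oxygen it was 0.31 at 6 h, -0.44 at 3 d, where the 20 longer genes had a median of -0.28 and the 19 shorter ones -0.10, and 0.07 at 6 d. With FPKM divided by library totals and no shallow library 27 genes were higher and 0 lower, where 47.8% of all genes passed in either direction, and with quantile normalization 6 were higher and 1 lower, where 15.1% passed. At 6 h 0 genes passed in either fit by limma, where 0% of all genes passed. An unadjusted p under 0.05 (limma) was reached by 0 and 3 of the 39 genes, a limit for which no share of all genes is given.

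BUB1 was also higher in 1% than in 5% oxygen at 24 h and 6 d. At 24 h BUB1 was the gene that passed in both fits, at 0.50 ± 0.08 (limma adjusted p = 0.000944), where 0.744% of all genes passed with all libraries and 2.95% without the shallow one. It was lost when FPKM was divided by library totals with all libraries. At 6 d it rose by 0.87 ± 0.08 (adjusted p = 2.91e-08) in each left-out and rescaled fit. At 6 d 4 genes were higher and 0 lower with all libraries, where 4.72% and 3.9% of all genes passed, and 13 were higher and 1 lower without the shallow library, where 16.1% and 11.5% passed. With all libraries, division by library totals gave 1 and 1, where 5.45% of all genes passed in either direction, and quantile normalization 4 and 1, where 11.6% passed. MAD2L1 had 291, 320.4 and 329 FPKM in 1% oxygen at 6 d, against 212, 198 and 202 FPKM in 5% oxygen, with no overlap, and passed without the shallow library at 0.61 ± 0.10 (adjusted p = 3.05e-05, and 0.0761 with all libraries). CCNA2 (0.44 ± 0.10) and NUSAP1 (0.44 ± 0.10) passed in both fits and with each library left out, but not with FPKM divided by library totals. CCNB2 (0.36 ± 0.11) also passed in both fits but, with the shallow library kept, was lost whichever library of the pair of groups was left out. Without the shallow library CENPA (0.41 ± 0.15) was also among the 5 largest rises and AURKA (-0.30 ± 0.09) was the fall.

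At 3 d 4 genes were higher and 11 lower in 1% than in 5% oxygen with all libraries, where 13.4% of all genes passed as higher and 23.2% as lower, and 5 were higher and 6 lower without the shallow library, where 16.6% and 10.4% passed. Division of FPKM by library totals, with all libraries, turned the balance to 7 higher and 3 lower and the median difference to 0.10, against -0.22 as deposited, where 30.7% of all genes passed in either direction, and quantile normalization gave 5 and 6, where 35.3% passed. The count was 7 without replicate 3 of 5% oxygen and 25 without replicate 2 of 1% oxygen. In the latter fit the 1% group was replicate 1 and the shallow library. Shares of all genes in these left-out fits are not given, so the counts are not set against them. AURKB, BUB3, CDC20, CDC25B and PTTG1 were lower in both fits and CENPE and MKI67 higher. PTTG1 was kept in 1 of the 4 rescaled fits, and the difference of MKI67 was 0.76 ± 0.18 with all libraries and 0.42 ± 0.13 without the shallow one. AURKB had 43.1, 63.3 and 46.2 FPKM in 1% oxygen, against 70.6, 77.6 and 72.5 FPKM in 5% oxygen. CDC20 had 139, 161 and 64.7 FPKM in 1% oxygen, against 203, 199 and 211 FPKM in 5% oxygen. Neither gene's groups overlapped, and without the shallow library they fell by 0.49 ± 0.12 and 0.45 ± 0.11 (limma adjusted p = 0.00384 and 0.00291), though both were lost when FPKM was divided by library totals without that library, and AURKB also with it. CENPE had 9.95, 10.2 and 7.69 FPKM in 1% oxygen, against 6.44, 6.75 and 3.82 FPKM in 5% oxygen, and its rise of 0.76 ± 0.15 without the shallow library (0.64 ± 0.15 with it) was kept with each library left out and under all 4 rescaled fits. CDC25B was lost without replicate 3 of 5% oxygen, which at 12.6 FPKM stood above 7.91 and 6.52 FPKM in its group. INCENP (0.63 ± 0.20) and CENPF (0.59 ± 0.12) were higher without the shallow library. At 6 h 0 genes passed with all libraries and PRC1 passed without the shallow library at 0.33 ± 0.08, where 0.0471% and 1.26% of all genes passed. With all libraries 7 genes had an unadjusted p under 0.05 (limma), a limit for which no share of all genes is given.

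Followed over time within 1% oxygen, BUB1 rose in the first and the last of the 3 steps. It was higher at 24 h than at 6 h by 0.53 ± 0.08, differed by -0.07 ± 0.08 between 3 d and 24 h without passing, and was higher at 6 d than at 3 d by 0.80 ± 0.08 (limma adjusted p = 0.000309, 0.473 and 2.08e-08). Both rises passed with each library left out and under all 4 rescaled fits. Between 6 h and 24 h, 2 genes passed with all libraries and 9 without the shallow one, where 3.79% and 17.5% of all genes passed. Beside BUB1 they were falls, led without the shallow library by AURKA (-0.39 ± 0.09), CCNB1 (-0.36 ± 0.10), KIF20A (-0.36 ± 0.10), PRC1 (-0.35 ± 0.08) and KIF23 (-0.34 ± 0.09). The call of CCNB1 with all libraries was lost when any of 5 of the 6 libraries was left out.

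At 3 d against 24 h in 1% oxygen, 1 gene was higher and 15 lower with all libraries, where 16.2% of all genes passed as higher and 34.8% as lower, and 4 were higher and 14 lower without the shallow library, where 23.5% and 25.3% passed. PLK1 had 115, 119 and 81.2 FPKM at 3 d, against 186, 177 and 143 FPKM at 24 h. MAD2L1 had 176, 179.9 and 64.1 FPKM at 3 d, against 256, 275 and 215 FPKM at 24 h. Every 3 d library was lower for both, and without the shallow library they fell by 0.51 ± 0.10 and 0.47 ± 0.11 (limma adjusted p = 0.000103 and 0.000806). Those 2 genes, AURKB, BUB1B, BUB3, CCNA2 and CDC20 passed in both fits, with each library left out and under all 4 rescaled fits. BIRC5 (-0.47 ± 0.09) and FOXM1 (-0.46 ± 0.15) passed without the shallow library. CDC25C, at 26.5, 29.8 and 9.40 FPKM at 3 d against 16.1, 18.2 and 15.2 FPKM at 24 h, was higher without the shallow library (0.74 ± 0.12), whose value was the lowest of the 6.

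At 6 d against 3 d in 1% oxygen, 20 genes were higher and 0 lower with all libraries, where 34.1% of all genes passed as higher and 14.8% as lower, and 16 were higher and 1 lower without the shallow library, where 23.7% and 20.9% passed. The count was 13 without replicate 3 of 6 d, a fit for which the share of all genes is not given. MAD2L1 had 291, 320.4 and 329 FPKM at 6 d, against 176, 179.9 and 64.1 FPKM at 3 d. CCNA2 had 172, 183 and 199 FPKM at 6 d, against 111, 126 and 86.4 FPKM at 3 d. CDK1 had 369, 382 and 416 FPKM at 6 d, against 254, 280.2 and 168 FPKM at 3 d. None of these groups overlapped, and without the shallow library the rises were 0.81 ± 0.11, 0.64 ± 0.09 and 0.54 ± 0.11. These 3 genes, BUB1 and BUB3 (0.50 ± 0.08) passed in both fits, with each library left out and under all 4 rescaled fits. CDC25C was the fall, at -0.44 ± 0.12.

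In 5% oxygen at 3 d against 24 h, FOXM1, CENPF, MKI67, CENPE and CCNA2 fell and CDC25C rose. FOXM1 had 4.71, 4.24 and 3.56 FPKM at 3 d, against 9.18, 9.33 and 8.40 FPKM at 24 h. CENPF had 9.97, 9.21 and 7.44 FPKM at 3 d, against 18.1, 16.8 and 17.1 FPKM at 24 h. MKI67 had 9.70, 9.07 and 5.38 FPKM at 3 d, against 14.2, 13.5 and 13.6 FPKM at 24 h. All 3 d libraries were lower for the 3 genes, which fell by 0.95 ± 0.18, 0.90 ± 0.21 and 0.74 ± 0.18 (limma adjusted p = 0.000128, 0.00143 and 0.00266). With CENPE (-0.63 ± 0.15), CCNA2 (-0.47 ± 0.10) and CDC25C, which rose by 0.83 ± 0.22, they were the 6 that passed in both fits, with each library left out and under all 4 rescaled fits. In all, 10 genes passed with all libraries and 16 without the shallow one, where 25.9% and 50% of all genes passed. Of the 10, 4 were higher and 6 lower, against 1 and 12 with FPKM divided by library totals and 4 and 7 with quantile normalization, where 28% and 34.8% of all genes passed. At 6 d against 3 d in 5% oxygen, 2 genes passed with all libraries and 8 without the shallow one, where 7.41% and 25% of all genes passed. With all libraries, division by library totals gave 4 higher and 0 lower, where 7.87% of all genes passed, and quantile normalization 3 and 2, where 11.3% passed. CENPE rose by 0.79 ± 0.15 in each left-out and rescaled fit. AURKB fell by 0.36 ± 0.11 but, with the shallow library kept, was lost whichever library of the pair of groups was left out. Without the shallow library alone AURKB passed (limma adjusted p = 0.014). Without the shallow library CENPF (0.60 ± 0.10), INCENP (0.64 ± 0.18) and MKI67 (0.57 ± 0.12) were also higher, and CDC20 (-0.44 ± 0.09) and PLK1 (-0.29 ± 0.09) lower. Between 24 h and 6 h 0 genes passed in either fit by limma, with 1 and 2 at an unadjusted p under 0.05, where 0.141% and 0.405% of all genes passed.

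In 21% oxygen few of the genes passed between neighbouring times. At 24 h against 6 h, 0 passed with all libraries and INCENP passed without the shallow one (-0.71 ± 0.18), where 0.132% and 2.42% of all genes passed. With all libraries 5 genes had an unadjusted p under 0.05 (limma), a limit for which no share of all genes is given. At 3 d against 24 h, 1 and 6 passed, where 10.8% and 29.5% of all genes passed. TOP2A rose by 0.40 ± 0.12 (limma adjusted p = 0.0291), but was lost without replicate 3 of 24 h or any of the 3 d libraries. The count was 5 without replicate 1 of 24 h, a fit for which the share of all genes is not given. Without the shallow library CKS2 (-0.55 ± 0.13) and CENPA (-0.40 ± 0.15) led the falls and KIF11 (0.65 ± 0.22) the rises. At 6 d against 3 d, 0 passed with all libraries and PLK1 fell by 0.32 ± 0.09 without the shallow one, where 1.06% and 7.29% of all genes passed. With all libraries 2 genes had an unadjusted p under 0.05 (limma), again with no share of all genes given. PLK1 at 6 d stood at 126, 124 and 137 FPKM in 1% oxygen, 111, 109.8 and 121 FPKM in 5% oxygen and 127, 133 and 129 FPKM in 21% oxygen, all below their own 6 h values.

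Other lists of cell cycle genes were set beside these for 1% against 21% oxygen. Values of these lists, here and in the next paragraph, are on the deposited scale, and their change under other scalings is not given. At 3 d the 37 S phase genes (DNA replication factors and nucleotide synthesis enzymes) had 1 higher and 32 lower in both fits, with a median difference of -0.81 with all libraries and -0.64 without the shallow one. The shares of all genes to set beside this and the other lists at 3 d are 16.9% higher and 36.3% lower with all libraries, and 25.2% and 28.5% without the shallow one. MCM3, a subunit of the replicative helicase, fell by 1.06 ± 0.08 and 1.14 ± 0.07 in these fits, and GINS2, which activates that helicase, by 1.51 ± 0.12 and 1.33 ± 0.11. The other 38 mitosis genes had 4 higher and 16 lower with all libraries and 4 and 14 without the shallow one (median -0.14), with PBK, a mitotic kinase, at -1.53 ± 0.24 and -0.96 ± 0.11 in the same order and CDCA5 (sororin), which protects cohesion, at -0.62 ± 0.14 and -0.92 ± 0.09. The 29 other kinetochore genes tested had 2 higher and 13 lower with all libraries, then 2 and 12 without the shallow one (median -0.10), with MIS18A, a factor that loads CENPA, at -0.78 ± 0.10 and -0.63 ± 0.09. The 16 anaphase-promoting complex genes had 2 higher and 8 lower, then 3 and 8 (median -0.24), with the subunits ANAPC13 at -1.47 ± 0.17 and -1.08 ± 0.10, and ANAPC5 at -0.75 ± 0.07 and -0.74 ± 0.07. The 17 condensin and cohesin genes had 2 higher and 5 lower, then 3 and 2 (median -0.01), with the condensin II subunit NCAPD3 at -1.55 ± 0.26 and -0.94 ± 0.12.

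Of 11 regulators of entry into mitosis that were tested, 2 were higher and 6 lower at 3 d with all libraries and 3 and 3 without the shallow one. WEE1, the kinase that holds CDK1 inactive, had differences of 1.18 ± 0.30 and 1.85 ± 0.17, and CHEK1, the kinase of the DNA replication checkpoint, -0.97 ± 0.17 and -0.58 ± 0.08. Of 22 genes of transcriptional control, 3 were higher and 11 lower, then 4 and 7. CDKN1A, which encodes the CDK inhibitor p21, rose by 2.88 ± 0.18 and 2.81 ± 0.19 at 3 d and by 1.33 ± 0.18 with all libraries at 6 d, and RBBP4, a subunit of MuvB complexes, had -0.71 ± 0.07 and -0.63 ± 0.07 at 3 d. At 6 d the S phase list had 8 higher and 0 lower with all libraries, among them RRM2 (0.86 ± 0.09), an enzyme of nucleotide synthesis. The other kinetochore list had 5 and 0 at 6 d, led by MLF1IP (the CENP-U gene, 0.76 ± 0.09) and HJURP, the chaperone of CENPA (0.62 ± 0.11). With all libraries the other mitosis list then had 1 higher and 1 lower, the anaphase-promoting complex 2 and 0, condensin and cohesin 0 and 0, the G2 entry list 0 and 0, and transcriptional control 2 and 0, where 5.84% and 5.04% of all genes passed. When the shallow library was left out these counts were 3 and 3, 4 and 0, 3 and 0, 1 and 0, and 4 and 1, with 13 and 0 for S phase and 8 and 1 for the other kinetochore genes, where 13.8% and 16% of all genes passed.

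**Figure D5:**
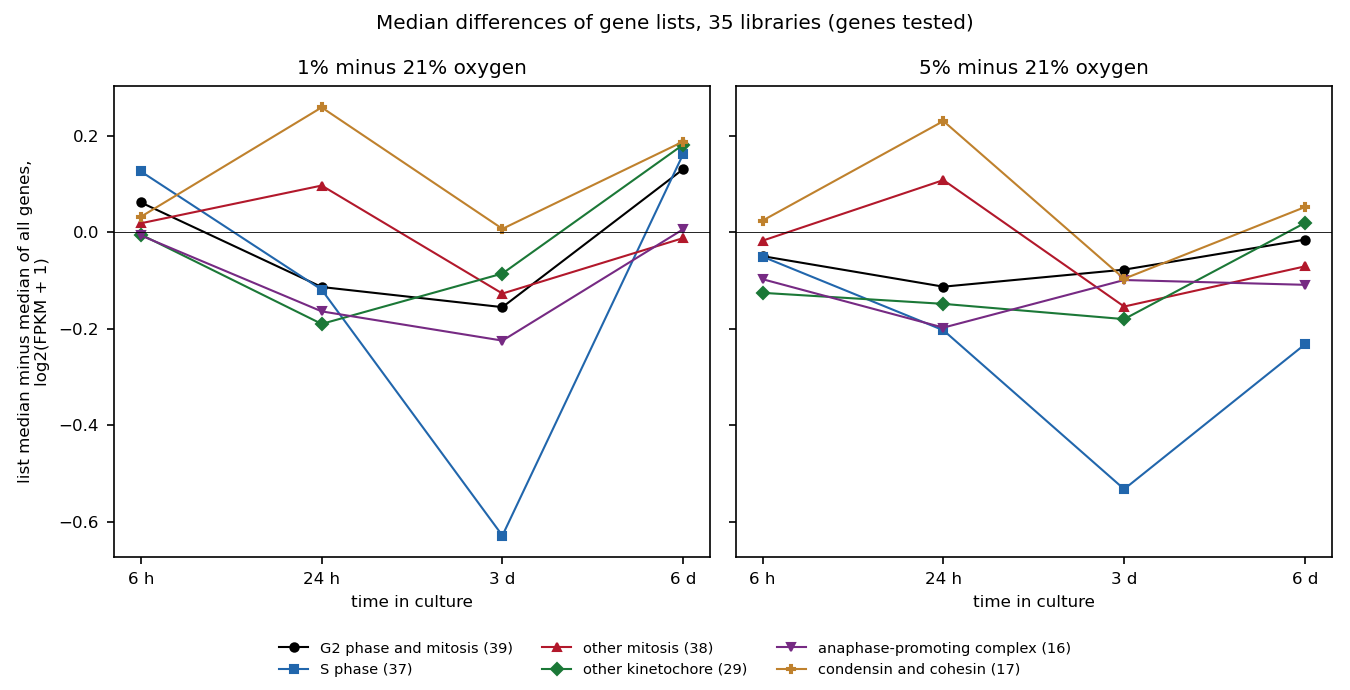
Median difference of 6 gene lists minus the median of all genes tested, in log2(FPKM + 1), for 1% against 21% oxygen (left) and 5% against 21% oxygen (right) by time, without the shallow library, with the number of genes tested in brackets. The S phase list is the lowest at 3 d in both panels, at -0.63 in 1% oxygen, where the G2 phase and mitosis genes stand at -0.16. All values are on the deposited scale.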

How the data were processed

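Polyadenylated RNA of K562 cells (RNeasy extraction, Smart-seq2 type libraries, paired reads, per the labels' protocols and the series' design text) was measured in 36 libraries, 3 for each of 12 combinations of oxygen level and time. The deposited values are FPKM per gene, made by the authors with TopHat, Cufflinks and Cuffnorm, per the submitters' processing notes; their versions, the genome and the gene models are not named in what was used here. Counts were not used here, so depth is relative only.

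Genes with a mean of at least 1 FPKM (10625 of 21950) were tested on log2(FPKM + 1), a scale that understates the change of weakly expressed genes. One mean per group was fitted with limma 3.58.1 in R 4.3.3, with a trended empirical Bayes spread over all 12 groups, Benjamini-Hochberg adjustment over all genes tested and a threshold of 0.05. The residual degrees of freedom were 24, and 23 without replicate 3 of 1% oxygen at 3 d. Errors of differences are standard errors from that fit. Where a library was left out, the remaining pair was taken to vary like the other groups. Fits with any other single library left out kept the shallow library. In comparisons that do not hold the 1% group at 3 d, leaving out the shallow library changed the estimate of spread and not the differences. The fit was checked on simulated data. The authors' FPKM were also divided by each library's total or quantile normalized, and other pseudocounts, filters, array weights, a replicate block and left-out libraries were tried. Summaries used Python 3.11.15, pandas 2.3.3 and matplotlib 3.10.9.

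The genes and the other lists were chosen with earlier results of these data known. Of the 40 genes, 20 are described by name throughout, with up to 5 of the largest rises and 5 of the largest falls among those past the threshold in each comparison; of the other lists, up to 3 genes with the smallest adjusted p for 1% against 21% oxygen at 3 d and 6 d could be named. Promoters came from RefSeq on GRCh38.p14, and lengths from the longest GENCODE coding transcript.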

Additional observations from a re-analysis of the deposited data

Results flagged for a closer look

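The difference between low and 21% oxygen was tested for a change between times, and some of the G2 phase and mitosis genes passed with all libraries. For 1% oxygen it differed between 6 d and 3 d in 14 genes, where 18.1% of all genes passed as higher and 10.3% as lower, and it varied over the 4 times in 19 genes of 39, where 40.3% of all genes passed. With quantile normalization these counts were 3 and 10, where 28.9% and 41.7% of all genes passed. Division of FPKM by library totals gave 7 and 13, where 20.8% and 38.5% passed. For 5% oxygen the difference varied over the 4 times in 2 genes, CKS1B and TOP2A, where 14.5% of all genes passed, and in 16 without replicate 3 of 1% oxygen at 3 d, where 41.9% of all genes passed. With all libraries, quantile normalization gave 5 genes and division by library totals 14, where 19.5% and 22.9% of all genes passed.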

How the results depend on the processing

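Of 102 values for single genes named by the rule, those that kept direction and call numbered 102 with a filter of 5 FPKM, 100 with a pseudocount of 0.1, 96 with a replicate block, 85 with no filter, 83 without replicate 3 of 1% oxygen at 3 d, 82 with array weights, 67 with quantile normalization and 64 with FPKM divided by library totals. With FPKM divided by library totals, AURKB at 0.125 and PTTG1 at 0.0611 changed sign for 1% against 21% oxygen at 24 h, AURKB at 0.0997 and KIF2C at 0.129 for 5% against 21% at 24 h, and CCNB1 at 0.000468 for 1% against 5% at 3 d. With quantile normalization CCNB1 at -0.0379 and PLK1 at -0.0496 changed sign for 6 d against 3 d in 1% oxygen, and CCNB1 at -0.113 for the 1% difference at 6 d minus 3 d. The cause was not tested.

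Counts of the 39 genes past the threshold moved by over 1.5 times as follows. With no filter the counts were 3 for 1% against 21% oxygen at 24 h, 2 for 5% against 21% at 24 h, 1 for 24 h against 6 h in 1%, 1 for 6 d against 3 d in 5%, 0 for 3 d against 24 h in 21% and 1 for the variation of the 5% difference with time, and a filter of 5 FPKM gave 8 for 1% against 21% at 24 h. In the same order 1428, 666, 256, 900, 831 and 1420 of all genes passed, and 1778 with the filter of 5 FPKM. These settings test other numbers of genes. Without the shallow library the counts of the 39 genes were 14 at 24 h and 7 at 6 d for 1% against 21%, 15, 17 and 12 at 24 h, 3 d and 6 d for 5% against 21%, 1 at 6 h and 14 at 6 d for 1% against 5%, 9 for 24 h against 6 h in 1%, 16 for 3 d against 24 h and 8 for 6 d against 3 d in 5%, 1, 6 and 1 for the 3 steps in 21%, and 16 for the variation of the 5% difference. In the same order 4103 and 3164, then 2994, 4775 and 3927, then 134 and 2931, then 1860 of all genes passed. The rest of that order was 5308 and 2652, then 257, 3138 and 775, then 4455. With FPKM divided by library totals the counts of the 39 genes were 16 for 1% and 12 for 5% against 21% at 24 h, 11 for 5% against 21% at 3 d, 0 at 24 h and 2 at 6 d for 1% against 5%, 1 for 24 h against 6 h and 9 for 6 d against 3 d in 1%, 4 for 6 d against 3 d in 5%, 12 and 1 for 3 d against 24 h and 6 d against 3 d in 21%, 7 for the 1% difference at 6 d minus 3 d, and 14 for the variation of the 5% difference. In the same order 22.3% and 16.2%, then 22.8%, then 0.442% and 5.45%, then 1.52% and 39% of all genes passed. The rest of that order was 7.87%, then 19.4% and 0.715%, then 20.8%, then 22.9%.

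With array weights the counts of the 39 genes were 13 and 18 at 24 h and 6 d for 1% against 21%, 16, 23 and 18 at 24 h, 3 d and 6 d for 5% against 21%, 3, 3, 6 and 22 at 6 h, 24 h, 3 d and 6 d for 1% against 5%, 15 for 24 h against 6 h in 1%, 1, 23 and 14 for the 3 steps in 5%, 1, 9 and 8 for those in 21%, 2 for the 5% difference at 6 d minus 3 d and 22 for its variation with time. In the same order 4464 and 4966, then 3499, 5786 and 5695, then 458, 1843, 2030 and 4457 of 10625 genes passed. The rest of that order was 3713, then 260, 6093 and 3362, then 287, 4011 and 2646, then 1113, then 6164. With quantile normalization the counts of the 39 genes were 1 at 24 h and 8 at 3 d for 5% against 21%, 1 for 24 h against 6 h and 11 for 6 d against 3 d in 1%, 5 for 6 d against 3 d in 5%, 3 for the 1% difference at 6 d minus 3 d, 10 for its variation and 5 for that of the 5% difference. In the same order 2.76% and 27%, then 3.02% and 45.2%, then 11.3%, 28.9%, 41.7% and 19.5% of all genes passed. Chosen after seeing the data, leaving out the shallow library together with division by library totals gave 27 for 1% at 24 h and 27, 19 and 7 for 5% against 21% at 24 h, 3 d and 6 d, where 52.3%, then 47.8%, 45.4% and 27.2% of all genes passed. With quantile normalization it gave 12 for 1% at 6 d and 7, 13 and 14 for 5%, where 32.3%, then 15.1%, 44.8% and 39.3% passed. Leaving out replicate 3 of 21% oxygen at 24 h as well gave 2 for 5% at 24 h, where 8.94% passed.

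Same-numbered libraries of different groups showed correlations of their deviations of -0.312 to 0.146 over 59 pairs, with 4 over 0.1. Such values cannot tell whether libraries of the same number were handled together, and the main fit used no pairing. With a replicate block the counts were 1 for 24 h against 6 h in 1% oxygen, 1 for 6 d against 3 d in 5% and 1 for the variation of the 5% difference, and within 1.5 times elsewhere. In the same order 353, 746 and 1442 of 10625 genes passed.

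Leaving out single libraries, only those of the pair of groups compared, gave, for 1% against 21% oxygen, 0 to 0, 1 to 8, 15 to 24 and 2 to 3 genes at 6 h, 24 h, 3 d and 6 d, for 5% against 21% 0 to 0, 0 to 9, 4 to 6 and 1 to 2, and for 1% against 5% 0 to 0, 1 to 1, 7 to 25 and 3 to 3. For the steps 24 h against 6 h, 3 d against 24 h and 6 d against 3 d it gave 1 to 2, 13 to 19 and 13 to 26 in 1% oxygen, 0 to 0, 7 to 9 and 1 to 2 in 5%, and 0 to 1, 0 to 5 and 0 to 0 in 21%. For the difference at 6 d minus 3 d it gave 11 to 20 for 1% and 0 to 0 for 5%, and for variation with time 15 to 25 and 1 to 6. Shares of all genes in these left-out fits are not given, so the ranges are not set against them.

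Depth in reads is unknown and no values below 1 FPKM on average were tested. Oxygen level goes with incubator throughout, and 3 libraries per group limit what can be called. With division by totals the median difference of all genes at 24 h was 0.39 for 1% and 0.36 for 5% oxygen, against -0.00 and -0.02 as deposited.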
